A study of Mus musculus with 6 samples.

Results

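The unfolded protein response genes examined here are 34 genes chosen by name as the sensors, regulators and effectors by which a cell answers misfolded protein in the endoplasmic reticulum (ER). They were found by gene name among the 54532 genes listed, and all 34 had a mean FPKM of at least 0.5, the level required for testing. FPKM (fragments per kilobase of gene length, scaled for sequencing depth) is the unit of every level given, so that levels can be compared between genes. RNA-seq was performed on 6 colonic tumor samples, 3 from the Tmem173fl/fl AOM+DSS-L group (labelled WT) and 3 from the Tmem173iΔmye AOM+DSS-L group (labelled CRE), in which Tmem173fl/fl is combined with Lyz2-Creert2. Both groups carried loxP sites in Tmem173, the gene encoding STING, and both received AOM (azoxymethane, a carcinogen), 3 cycles of DSS (dextran sodium sulfate, which injures the colonic epithelium) and then tamoxifen (TAM). Tamoxifen was given after the last cycle. The tamoxifen-inducible Cre was the allele by which the groups differed, and it is driven by the promoter of Lyz2, a myeloid gene, while RNA came from whole tumor. The labels give no ages for these mice and do not say how many tumors were taken per mouse.

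When unfolded proteins accumulate in the ER, the chaperone BiP is drawn away from the membrane sensors. IRE1 splices the Xbp1 mRNA, PERK phosphorylates eIF2α and thereby favors translation of ATF4, and ATF6 moves to the Golgi and is cleaved into a transcription factor. Together they raise chaperones, oxidoreductases and the machinery that returns failed proteins to the cytosol for degradation, and under prolonged stress CHOP is induced. In the colon this response is best known from secretory cells: goblet cells, which also carry their own sensor IRE1β, and plasma cells, which need XBP1.

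The gene counts of a tumor summed to between 15329810 and 16533732. Epithelial markers were high in every tumor, as Epcam ranged from 788 to 1142 FPKM and Krt8 from 2095 to 2419 FPKM over the 6 tumors. All 7 epithelial markers had a log2 fold change above 0, or 5 without Tmem173iΔmye replicate 1. Vil1, an actin-binding protein of the brush border, had separate groups and a log2 fold change of 0.35 (SE 0.15), with an unadjusted p of 0.0495 and an adjusted p of 0.742 from edgeR. It was the only 1 of the 7 with separate groups or with an unadjusted p under 0.05. Without Tmem173iΔmye replicate 1 its log2 fold change was 0.25, with an unadjusted p of 0.135 from edgeR. With Y-linked reads as a covariate that p was 0.103 in edgeR. Tmem173 had 48.6, 84.5 and 44.2 FPKM in Tmem173fl/fl replicates 1, 2 and 3 and 62.7, 61.0 and 53.7 FPKM in Tmem173iΔmye replicates 1, 2 and 3. Whole-tumor RNA therefore did not separate the genotypes. A pair of libraries stood apart in ways that touch the results. Tmem173iΔmye replicate 1 had 74.8 FPKM of Cxcl9, a chemokine gene induced by interferon-gamma, against 2.57 to 6.42 FPKM in the other 5 tumors. Irgm2, another gene induced by interferon-gamma, was higher in all 3 Tmem173iΔmye tumors, with 53.5, 22.4 and 31.1 FPKM against 13.3, 11.2 and 10.9 FPKM. Its log2 fold change was 1.59 (SE 0.30), with an adjusted p of 0.742 from edgeR and 0.00076 from DESeq2, and 1.18 without replicate 1. In Tmem173fl/fl replicate 2 the 5476 shortest of all genes tested lay at a median of -0.14 and the 5475 longest at 0.11, in log2 CPM (read counts scaled to library size) relative to the group mean. Tmem173fl/fl replicate 1 (0.12 and -0.084) and Tmem173iΔmye replicate 1 (0.093 and -0.080) lay the other way. In Tmem173fl/fl replicate 2 the summed level of 9 goblet cell markers was the lowest of all tumors, at 669.7 FPKM against 1194 to 3288 FPKM. Y-linked reads were present in Tmem173fl/fl replicate 1 and in Tmem173iΔmye replicates 1 and 2, so the sexes of the mice were unevenly spread over the groups. The part of each of these in the results was not tested unless a value is given. In bulk tissue, fewer cells of a type and less RNA per cell cannot be told apart.

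To ask whether the tumor's ER stress program differed after late deletion of myeloid STING, the counts were compared with edgeR's quasi-likelihood test over 16426 genes. No member had an adjusted p-value under 0.05, as was true of every gene tested (0% called), and DESeq2 called 0 of the 34 as well, against 28 of all genes. At an unadjusted p under 0.05, 3 members were higher in Tmem173iΔmye tumors (Xbp1, Manf and Creld2; 8.82% of the 34, against 3.23% of all genes tested) and 1 was lower (Ern2; 2.94% against 2.9%). DESeq2 also gave 4 members an unadjusted p under 0.05 (11.8%, against 6.65% of all genes). The values of 5 members lay entirely above those of the other group (Xbp1, Manf, Creld2, Eif2ak3 and Derl2; 14.7%, against 6.03% of all genes) and those of 2 entirely below (Ern1 and Ern2; 5.88%, against 6.47%). A total of 27 of the 34 were on average higher in Tmem173iΔmye than in Tmem173fl/fl tumors (log2 fold change above 0), or 79.4% against 49.4% of all genes. That number fell to 22 without Tmem173fl/fl replicate 3 and to 23 without replicate 1 of that group, and was 25 to 28 in the other alternatives run. The median log2 fold change of the members was 0.19 and that of all genes tested was -0.0042. The threshold used in the study, a change of 1 or more on the log2 scale in either direction with an unadjusted p under 0.05, was reached by 0 of the 34 and by 2.12% of all genes. The 34 genes share regulators, and their directions are not independent of each other.

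**Figure D1:**
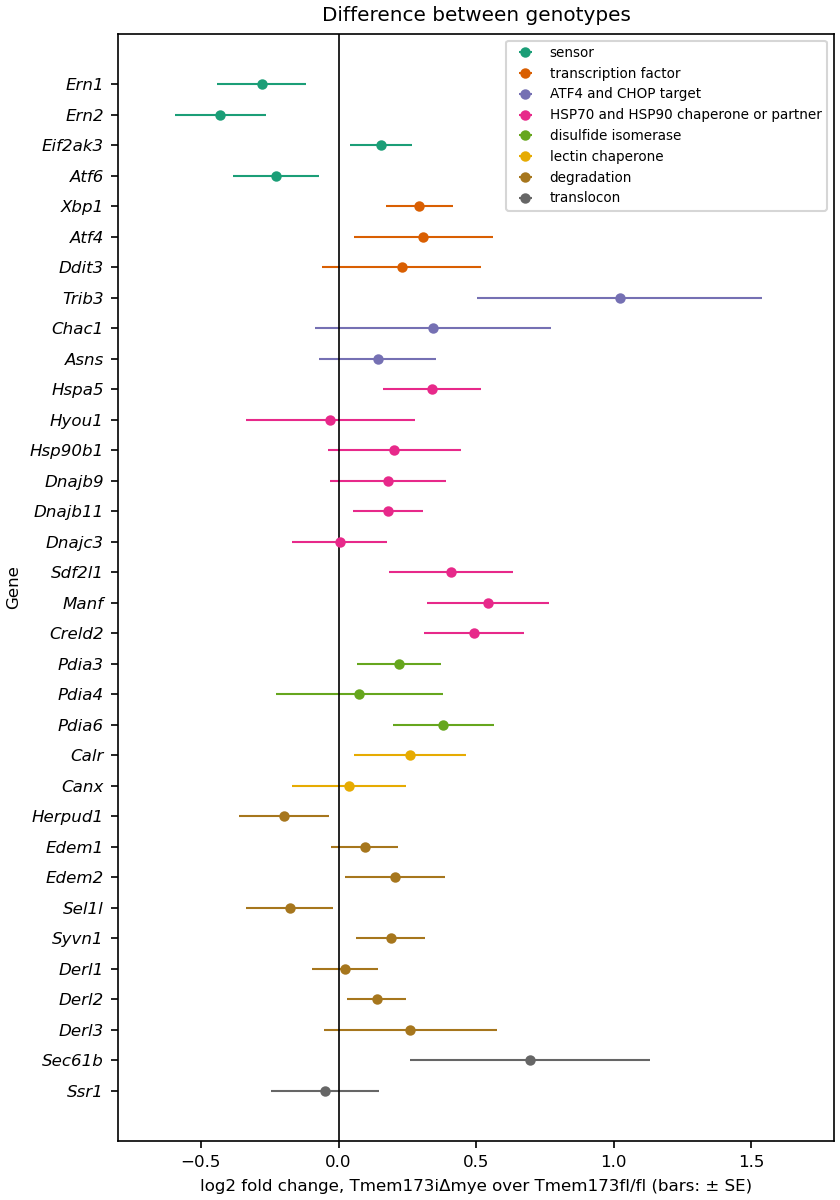
Log2 fold change of each of the 34 genes for Tmem173iΔmye over Tmem173fl/fl tumors (x axis) from edgeR, with bars of ± SE, listed by role (y axis, colors). Of the 4 sensors, 3 lie below 0, while the 3 transcription factors and 8 of the 9 chaperones lie above it.

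Of the 4 sensors, 3 had a lower mean in Tmem173iΔmye tumors and 1 a higher mean. Ern2 (GRCm38, chromosome 7, 122169893 to 122186207, minus strand) encodes IRE1β, the form of IRE1 found in mucus-secreting epithelium. It had 21.5, 18.8 and 18.7 FPKM in Tmem173fl/fl replicates 1, 2 and 3 and 16.3, 11.6 and 15.98 FPKM in Tmem173iΔmye replicates 1, 2 and 3. Every Tmem173iΔmye tumor was thus below every Tmem173fl/fl tumor. The means were 14.6 ± 2.62 (SD, n = 3) FPKM in Tmem173iΔmye and 19.6 ± 1.61 (SD, n = 3) FPKM in Tmem173fl/fl tumors. This was -0.43 on the log2 scale (SE 0.17), with an unadjusted p of 0.0329 and an adjusted p of 0.742 from edgeR. Leaving out any 1 tumor kept it between -0.51 and -0.29. The unadjusted p passed 0.05 without Tmem173fl/fl replicate 1 (0.102), Tmem173fl/fl replicate 3 (0.0562) or Tmem173iΔmye replicate 2 (0.118). With Y-linked reads as a covariate it was 0.0495 in edgeR.

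Ern2 was the only one of the 9 goblet cell markers with an unadjusted p under 0.05 in edgeR, and 6 of the 9 had a log2 fold change above 0. For Muc2, the main secreted mucin of the colon, it was 0.019 (SE 0.39), and for Agr2, a disulfide isomerase needed for mucin folding, it was 0.71 (SE 0.60). Without Tmem173iΔmye replicate 1 they were -0.21 and -0.23, and 7 of the 9 markers, Ern2 included, were below 0. The summed level of the 9 markers spread from 669.7 to 2969 FPKM over the Tmem173fl/fl tumors, a far wider range than that of Ern2. Ern2 itself is in that sum. The markers Spink4 (152 to 1097 FPKM) and Tff3 (154 to 769 FPKM) made up its largest parts in these tumors, so it was not an even measure of the 9 markers.

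Ern1, the ubiquitous IRE1α, was also lower in each Tmem173iΔmye tumor. Its levels were 9.93, 10.2 and 13.0 FPKM in Tmem173fl/fl and 7.66, 9.87 and 9.74 FPKM in Tmem173iΔmye replicates 1, 2 and 3, but the gap between the groups was narrow. The difference on the log2 scale was -0.28 (SE 0.16; adjusted p = 0.742 in edgeR), and -0.14 without Tmem173fl/fl replicate 3. Atf6 had 7.62, 10.7 and 7.78 FPKM in Tmem173fl/fl and 7.09, 7.88 and 7.34 FPKM in Tmem173iΔmye tumors. These overlapped, with a log2 fold change of -0.23 (SE 0.16) that shrank to -0.059 without Tmem173fl/fl replicate 2. Eif2ak3, which encodes PERK, was the sensor with a higher mean in Tmem173iΔmye tumors. It had 8.73, 8.36 and 8.34 FPKM in Tmem173fl/fl and 9.25, 9.50 and 9.57 FPKM in Tmem173iΔmye replicates 1, 2 and 3. The groups were separate and tight, and the difference on the log2 scale was 0.15 (SE 0.11; adjusted p = 0.759 in edgeR). Summed over the 4 sensors, the level was 47.8, 48.0 and 47.8 FPKM in the Tmem173fl/fl tumors and 40.3, 38.9 and 42.6 FPKM in the Tmem173iΔmye tumors. Most of the gap came from Ern2, the sensor of highest level.

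Xbp1 (chromosome 11, 5520659 to 5525893, plus strand) is the target of IRE1 and a driver of ER expansion in secretory cells. It had 70.1, 71.3 and 63.4 FPKM in Tmem173fl/fl and 86.3, 79.7 and 85.2 FPKM in Tmem173iΔmye replicates 1, 2 and 3. Each Tmem173iΔmye tumor was above each Tmem173fl/fl tumor, at 83.8 ± 3.52 (SD, n = 3) against 68.3 ± 4.29 (SD, n = 3) FPKM. The log2 fold change was 0.29 (SE 0.12), the unadjusted p 0.0436 and the adjusted p 0.742 from edgeR. It ranged from 0.25 to 0.33 when single tumors were left out, and the unadjusted p stayed under 0.05 only without Tmem173fl/fl replicate 2 (0.0325), with 0.0640 to 0.129 for the other 5 tumors left out. With Y-linked reads as a covariate it was 0.0760 in edgeR. Counts per gene do not tell spliced from unspliced Xbp1, so they do not report on IRE1 activity.

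Atf4, the effector of PERK, had 83.8, 46.2 and 68.8 FPKM in Tmem173fl/fl and 104, 65.9 and 77.5 FPKM in Tmem173iΔmye replicates 1, 2 and 3. Ddit3, which encodes the pro-apoptotic factor CHOP, had 8.26, 4.02 and 6.06 FPKM and 8.31, 6.13 and 7.13 FPKM. Both genes ran in parallel over the tumors, with the lowest level in Tmem173fl/fl replicate 2. Their log2 fold changes were 0.31 (SE 0.25) and 0.23 (SE 0.29), both close to their errors, and without Tmem173fl/fl replicate 2 they were 0.099 and -0.0024. That of Atf4 was 0.11 without Tmem173iΔmye replicate 1. Ddit3 overlaps Mars on the opposite strand, which had 7593 counts over all tumors against 1085 for Ddit3. The table also listed under the name Ddit3 a record of 105 bases with 0 counts, which was not used.

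Among the targets of ATF4 and CHOP, the highest level was in Tmem173iΔmye replicate 1 for all 3 genes. Trib3, a pseudokinase induced by both factors, had 1.08, 0.975 and 0.674 FPKM in Tmem173fl/fl and 3.38, 1.0001 and 1.19 FPKM in Tmem173iΔmye replicates 1, 2 and 3. Tmem173iΔmye replicate 1 alone was clearly higher, and the difference of 1.02 on the log2 scale (SE 0.52; adjusted p = 0.742 in edgeR) became 0.27 without it. Chac1, which degrades glutathione, had 2.11, 0.980 and 1.28 FPKM and 2.58, 1.79 and 1.199 FPKM. Its log2 fold change of 0.35 (SE 0.43) became 0.034 without the same tumor. Asns, asparagine synthetase, had 17.0, 19.4 and 12.1 FPKM and 21.5, 14.7 and 17.4 FPKM, a log2 fold change of 0.14 (SE 0.21), or -0.010 without that tumor. The groups overlapped for all 3 of these genes.

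**Figure D2:**
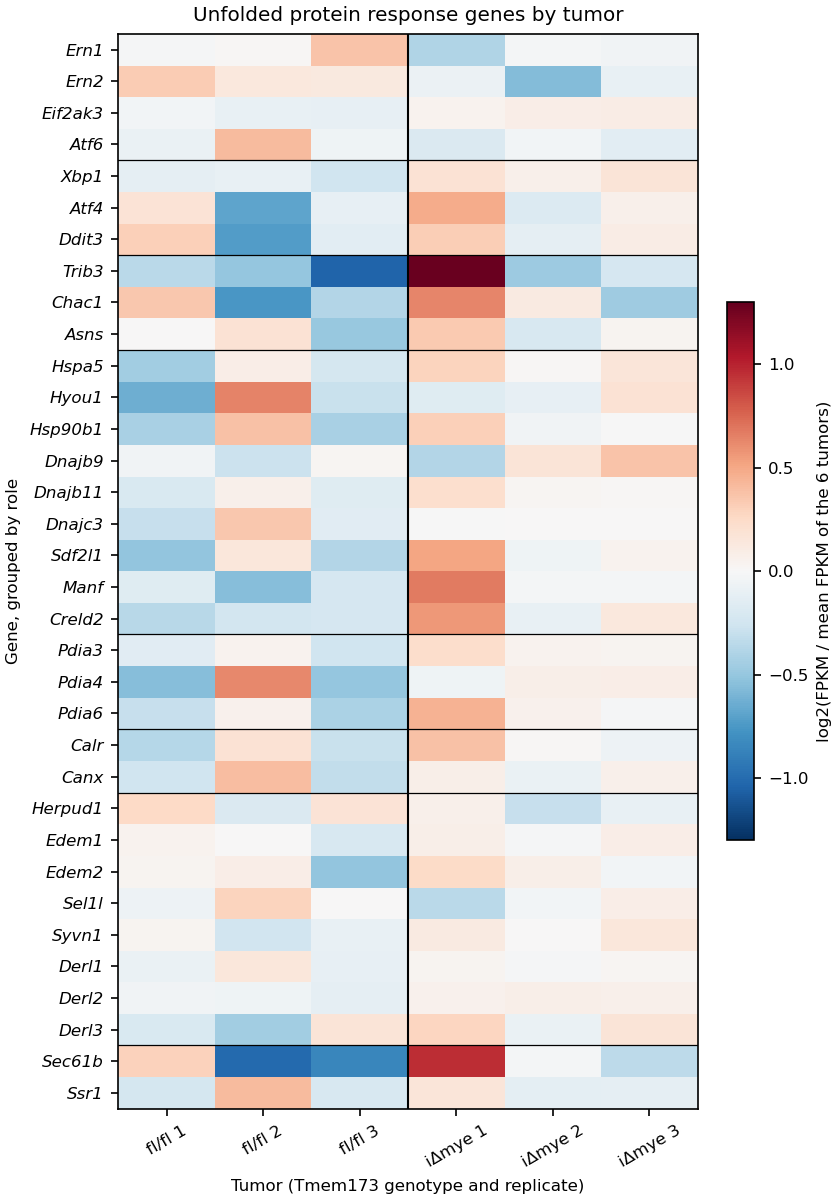
Level of the 34 genes (y axis, grouped by role) in the 6 tumors (x axis) as log2 of FPKM over the gene's mean in the 6 tumors, from -1.3 (blue) to 1.3 (red). Tmem173iΔmye replicate 1 has the highest level of 17 genes and Tmem173fl/fl replicate 2 of 9, among them Hyou1, Pdia4 and Canx.

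The chaperones of the ER lumen are the classical output of this response, and the elements known to drive them can be read in their promoters. Promoters from RefSeq (GRCm38.p6), 250 bases before to 50 bases after each annotated start, matched 29 of the 34 genes. Ern2, Manf, Hyou1, Derl1 and Atf6 were not matched. On either strand, 9 of the 29 held an ER stress response element (ERSE), which is CCAAT followed by 9 bases of any kind and then CCACG, and which ATF6 and the CCAAT-binding factor NF-Y are known to recognize. This was 31.0% of the members with a promoter, whereas 37 of 27025 genes of the table held it, or 0.137%. To show the element these 9 genes share, the stretches that hold the matches are printed 5′ to 3′ on the strand of the gene and ending before its start, with the matches in capitals. On the opposite strand the match reads as CGTGG, 9 bases and ATTGG.
Hspa5, chr2:34772010-34772058, plus strand: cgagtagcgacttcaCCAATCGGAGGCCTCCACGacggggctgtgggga
Hsp90b1, chr10:86705518-86705671, minus strand: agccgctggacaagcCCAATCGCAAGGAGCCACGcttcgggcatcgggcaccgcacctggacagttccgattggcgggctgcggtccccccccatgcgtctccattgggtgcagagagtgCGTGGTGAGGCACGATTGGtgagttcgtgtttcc
Dnajc3, chr14:118937812-118937860, plus strand: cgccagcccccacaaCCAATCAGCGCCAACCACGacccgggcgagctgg
Creld2, chr15:88819505-88819553, plus strand: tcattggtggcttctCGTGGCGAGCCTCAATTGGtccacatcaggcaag
Pdia6, chr12:17266476-17266524, plus strand: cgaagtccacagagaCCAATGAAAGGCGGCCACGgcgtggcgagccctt
Calr, chr8:84847060-84847108, minus strand: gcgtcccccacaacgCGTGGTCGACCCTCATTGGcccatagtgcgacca
Canx, chr11:50325785-50325833, minus strand: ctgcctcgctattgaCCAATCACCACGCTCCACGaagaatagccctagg
Syvn1, chr19:6046517-6046565, plus strand: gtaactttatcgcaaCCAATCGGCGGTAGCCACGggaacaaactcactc
Derl3, chr10:75893227-75893275, plus strand: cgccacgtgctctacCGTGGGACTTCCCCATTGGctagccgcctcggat

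Hsp90b1 held 2 matches and each of the other 8 genes held 1. The centers of the matches lay between -203 and -35 bases from the start, and no 2 matches overlapped. A match describes the letters of the window and does not show that a factor was bound. All 9 of these genes had a log2 fold change above 0, from 0.0037 for Dnajc3 to 0.49 for Creld2 with a median of 0.26, and 16 of the 20 members whose promoter held no match were above 0, with a median of 0.18. Dnajc3 and Canx fell to -0.12 and -0.061 without Tmem173fl/fl replicate 1, and to -0.058 and -0.083 without replicate 3 of that group. A link between the element and the direction was not tested. The core of the UPRE, the element bound by XBP1, was searched as TGACGTGG and was found in 0 of the 29 promoters and in 0.714% of all genes of the table. Among the further genes of the pathway listed below, 63 had a promoter. The UPRE core was held by 4 of them (6.35%) and an ERSE by 0, so the ERSE share of the members is particular to the list chosen. For the UPRE core, 0 of 29 promoters is near the 0.714% of all genes and is not read as a trait of the members.

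**Figure D3:**
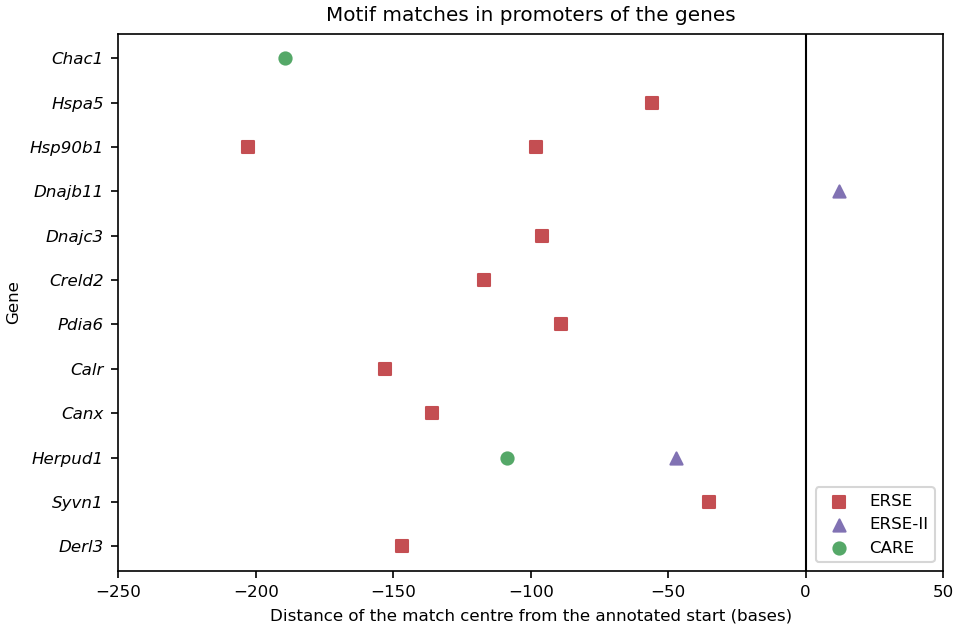
Position of motif matches in the promoters of the genes that hold one (y axis), as the distance of the match's center from the annotated start in bases (x axis, negative before the start). Squares are ERSE, triangles ERSE-II and circles CARE matches, and 9 genes carry an ERSE match, all before the start.

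Hspa5, which encodes BiP, the HSP70 chaperone that holds the sensors inactive, had 112, 163 and 131 FPKM in Tmem173fl/fl and 187, 155 and 171 FPKM in Tmem173iΔmye replicates 1, 2 and 3. The groups overlapped through Tmem173fl/fl replicate 2 alone. The log2 fold change was 0.34 (SE 0.18), with an unadjusted p of 0.0918 and an adjusted p of 0.742 from edgeR. The smallest p-values of the role were those of Creld2 and Manf. Creld2 (chromosome 15, 88819646 to 88826683, plus strand) encodes an ER stress-inducible protein, and its promoter holds the ERSE printed for it. It had 27.6, 30.1 and 30.4 FPKM in Tmem173fl/fl and 52.3, 33.1 and 38.8 FPKM in Tmem173iΔmye tumors. The Tmem173fl/fl tumors were close together, and the spread of the other group came from replicate 1. Its log2 fold change was 0.49 (SE 0.18), with an unadjusted p of 0.0269 and an adjusted p of 0.742 from edgeR, and it was 0.29 with an unadjusted p of 0.0866 without Tmem173iΔmye replicate 1. The unadjusted p also passed 0.05 without any single Tmem173fl/fl tumor, at 0.0510 to 0.0725, and was 0.0493 with Y-linked reads as a covariate.

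Manf (chromosome 9, 106838312 to 106891979, minus strand) encodes a BiP cofactor that is released under ER stress. It had 27.5, 20.8 and 26.4 FPKM in Tmem173fl/fl and 48.9, 30.1 and 30.2 FPKM in Tmem173iΔmye replicates 1, 2 and 3. The groups did not overlap, but only Tmem173iΔmye replicate 1 was far from the rest. The difference of 0.54 on the log2 scale (SE 0.22; unadjusted p = 0.0405 and adjusted p = 0.742 in edgeR) was 0.27 with an unadjusted p of 0.147 without that tumor. The unadjusted p also passed 0.05 without Tmem173fl/fl replicate 2 (0.121) or replicate 3 (0.0675), and with Y-linked reads as a covariate (0.0893). The record of Manf overlaps Rbm15b on its own strand and Dcaf1 on the other, with log2 fold changes of -0.12 (SE 0.19) and 0.064 (SE 0.15). Reads in the overlap cannot be assigned with certainty.

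For most of the other chaperones Tmem173fl/fl replicate 2 was the highest tumor of its group. Hyou1, the large HSP70 relative that exchanges nucleotide on BiP, had 20.1, 49.0 and 25.6 FPKM in Tmem173fl/fl and 28.1, 29.1 and 35.5 FPKM in Tmem173iΔmye tumors. The highest level of all 6 was thus in Tmem173fl/fl replicate 2 and the lowest levels in replicates 1 and 3 of the same group. Its log2 fold change of -0.030 (SE 0.31) became 0.43 without replicate 2 and -0.27 without replicate 1 of that group. Hsp90b1, the ER form of HSP90, had 72.2, 126 and 72.2 FPKM against 121, 93.9 and 96.8 FPKM, and its log2 fold change of 0.20 (SE 0.24) ranged from 0.071 without Tmem173fl/fl replicate 3 to 0.51 without replicate 2, and was 0.083 without Tmem173iΔmye replicate 1. Dnajc3, a co-chaperone that also restrains PERK, had 22.2, 34.8 and 24.6 FPKM against 27.1, 27.3 and 27.4 FPKM. Sdf2l1, a partner of BiP, had 24.4, 38.5 and 26.6 FPKM against 49.7, 33.5 and 35.8 FPKM, a log2 fold change of 0.41 (SE 0.23), or 0.63 without Tmem173fl/fl replicate 2 and 0.21 without Tmem173iΔmye replicate 1. Of the 9 genes of this role, 6 were highest among the Tmem173fl/fl tumors in replicate 2. They included Sdf2l1, the shortest gene of the 34 at 1108 bases. Short genes as a whole lay low in this library, and the part of gene length in these levels was not tested. Dnajb11 and Dnajb9, both HSP40 co-chaperones of BiP, had log2 fold changes of 0.18 (SE 0.13) and 0.18 (SE 0.21). Summed over the 9 genes, the level was 352.4, 512.9 and 385.1 FPKM in Tmem173fl/fl and 567.8, 456.2 and 492.4 FPKM in Tmem173iΔmye tumors.

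The enzymes that form disulfide bonds and the lectin chaperones followed the same pattern. Pdia3, the isomerase that works with calreticulin and calnexin, had 224, 257 and 209 FPKM in Tmem173fl/fl and 292, 257 and 255 FPKM in Tmem173iΔmye replicates 1, 2 and 3. It was the highest of the 3 isomerases, and the difference on the log2 scale was 0.22 (SE 0.15; adjusted p = 0.757 in edgeR). Pdia4 had 61.2, 138 and 63.0 FPKM against 86.2, 94.4 and 95.0 FPKM. Tmem173fl/fl replicate 2 lay above all 3 Tmem173iΔmye tumors and the other 2 lay below them, so the log2 fold change was 0.075 (SE 0.30) with it and 0.56 (SE 0.11) without it, at an adjusted p of 0.745 from edgeR. Without Tmem173fl/fl replicate 1 it was -0.12. Pdia6, which also acts on IRE1 and PERK, had 45.3, 58.2 and 41.8 FPKM against 76.5, 57.8 and 55.1 FPKM, a log2 fold change of 0.38 (SE 0.18), or 0.22 without Tmem173iΔmye replicate 1. Calr, calreticulin, had 213, 312 and 224 FPKM against 359, 277 and 262 FPKM, a log2 fold change of 0.26 (SE 0.21) that ranged from 0.11 without Tmem173iΔmye replicate 1 to 0.44 without Tmem173fl/fl replicate 2. Canx, its membrane-bound relative calnexin, had 72.3, 114 and 69.5 FPKM against 91.1, 81.5 and 90.4 FPKM, a log2 fold change of 0.040 (SE 0.21) that ranged from -0.083 without Tmem173fl/fl replicate 3 to 0.30 without replicate 2. In all 5 of these genes, Tmem173fl/fl replicate 2 was the highest tumor of its group.

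Among the alternatives run, leaving out Tmem173fl/fl replicate 2 gave the highest count of members past the unadjusted limit. Without it, 11 of the 34 had an unadjusted p under 0.05, or 32.4% against 6.5% of all genes, of which 9 were higher in Tmem173iΔmye tumors (Xbp1, Hspa5, Hyou1, Hsp90b1, Sdf2l1, Pdia4, Pdia6, Calr and Canx) and 2 were lower (Ern2 and Herpud1). The adjusted p of each was 0.745 from edgeR. Manf and Creld2 were not among the 11. Without Tmem173iΔmye replicate 1, in contrast, Ern2 alone had an unadjusted p under 0.05, or 2.94% against 3.5% of all genes. Without Tmem173fl/fl replicate 1 the count was 2 (Manf and Sec61b; 5.88% against 10.1%), and without Tmem173fl/fl replicate 3 it was 0 (0% against 3.26%). In these 3 fits the share of the members was below that of all genes. It was 8.82% without Tmem173iΔmye replicate 2 and also without replicate 3, against 4.83% and 5.63%. The median log2 fold change of the 34 was 0.24 without Tmem173fl/fl replicate 2 and 0.11 without Tmem173iΔmye replicate 1.

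**Figure D4:**
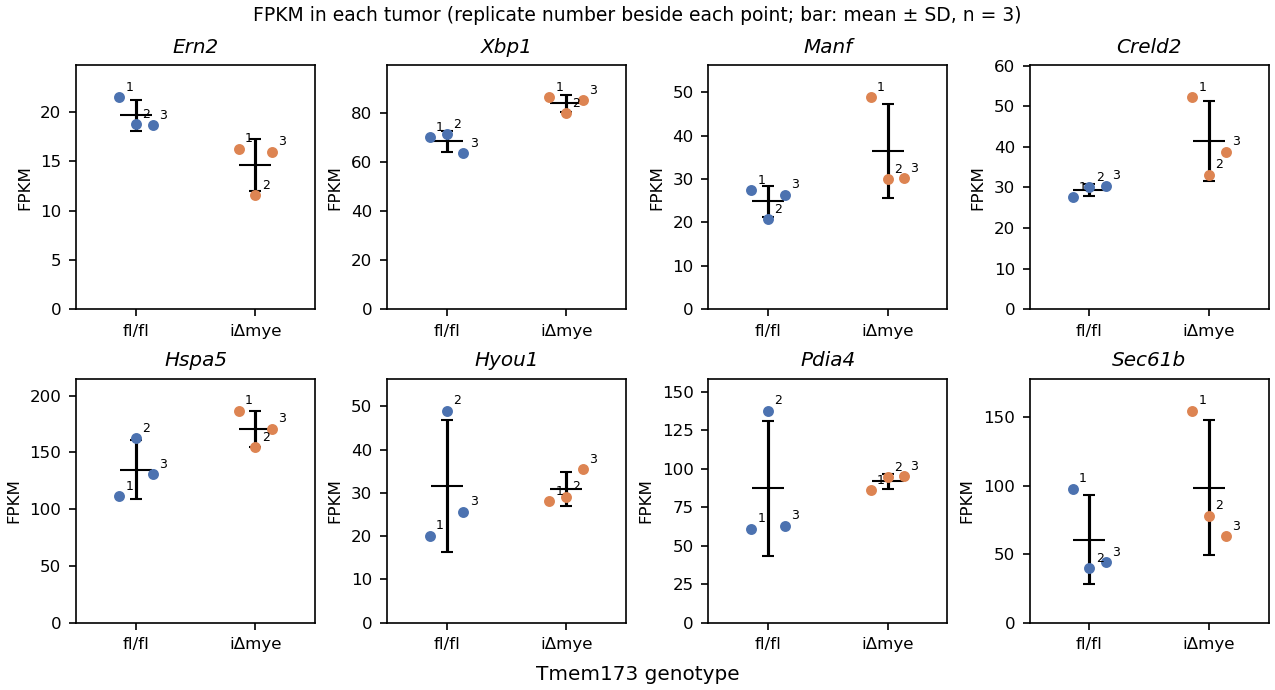
FPKM of 8 of the genes (y axes, from 0) in the tumors of each Tmem173 genotype (x axes), each point a tumor with its replicate number, with the mean ± SD of 3 tumors in black. The groups are apart for Ern2, Xbp1, Manf and Creld2, whereas Tmem173fl/fl replicate 2 lies above every other tumor for Hyou1 and Pdia4 and below every other tumor for Sec61b.

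Genes of ER-associated degradation, which recognize failed proteins and pass them to the cytosol, had log2 fold changes from -0.20 to 0.26, of which 6 of 8 were above 0. With Herpud1, the most abundant, below 0, their summed level was 181.5 ± 7.52 (SD, n = 3) FPKM in Tmem173fl/fl and 179.8 ± 9.03 (SD, n = 3) FPKM in Tmem173iΔmye tumors. Herpud1, which assembles the degradation complex and was the highest of them, had 69.9, 51.6 and 66.2 FPKM in Tmem173fl/fl and 61.3, 47.7 and 54.9 FPKM in Tmem173iΔmye replicates 1, 2 and 3. It was lower on average in Tmem173iΔmye tumors, by -0.20 on the log2 scale (SE 0.16; adjusted p = 0.773 in edgeR). Its promoter held no ERSE but an ERSE-II (ATTGG, 1 base and CCACG) together with a CARE, the element of ATF4 and C/EBP factors, searched as TGATGCAA. ERSE-II was held by 2 of the 29 promoters, the other being that of Dnajb11 after its start, and by 0.0444% of all genes of the table. CARE was held by 2 as well, Herpud1 and Chac1, and by 1.03% of all genes. Both stretches are shown in the same way, and on the opposite strand CARE reads as TTGCATCA.
Herpud1, chr8:94386302-94386402, plus strand: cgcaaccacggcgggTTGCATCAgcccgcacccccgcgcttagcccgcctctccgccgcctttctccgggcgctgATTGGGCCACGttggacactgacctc
Chac1, chr2:119351034-119351071, plus strand: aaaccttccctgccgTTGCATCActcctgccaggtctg

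Sel1l and Syvn1 encode the core of the main ubiquitin ligase of this pathway. Sel1l had 15.2, 19.4 and 15.9 FPKM in Tmem173fl/fl and 12.4, 15.4 and 16.8 FPKM in Tmem173iΔmye tumors, and Syvn1 had 19.1, 15.7 and 17.5 FPKM against 20.3, 18.7 and 20.7 FPKM. The 2 partners lay on opposite sides of 0, with log2 fold changes of -0.18 (SE 0.16) and 0.19 (SE 0.12), both overlapping between groups. Derl2, one of the derlins of the ER membrane, had 7.75, 7.69 and 7.35 FPKM in Tmem173fl/fl and 8.32, 8.402 and 8.38 FPKM in Tmem173iΔmye replicates 1, 2 and 3. The groups were separate, by 0.14 on the log2 scale (SE 0.11; adjusted p = 0.770 in edgeR). Derl2 overlaps Mis12 and Syvn1 overlaps Mrpl49, each on the opposite strand, with log2 fold changes of 0.075 (SE 0.22) and 0.38 (SE 0.14). For Derl1 the log2 fold change was 0.024 (SE 0.12), and for Edem1 and Edem2, lectins that select glycoproteins for degradation, it was 0.095 (SE 0.12) and 0.21 (SE 0.18). Derl3, the derlin typical of plasma cells, was the least expressed member, at 29 to 51 counts per tumor and 0.973 to 1.61 FPKM, with a log2 fold change of 0.26 (SE 0.31). Over the same tumors, Jchain, which joins secreted antibodies in plasma cells, was higher by 1.10 on the log2 scale (SE 0.46; unadjusted p = 0.0437 and adjusted p = 0.742 in edgeR), and by 0.65 (unadjusted p = 0.176 in edgeR) without Tmem173iΔmye replicate 1. It was the only one of 8 tested plasma cell markers with an unadjusted p under 0.05. Of the 8, 7 were above 0, or 5 without that tumor, and Ighm was at -0.45. The summed level of 9 plasma cell markers was 267 to 568.5 FPKM in Tmem173fl/fl and 481 to 1137 FPKM in Tmem173iΔmye tumors. Derl3 itself is 1 of these 9. Igha and Sdc1 made up the largest parts of the sum in every tumor, so it was not an even measure of the 9 markers. Igha had 65.0 to 297 FPKM in Tmem173fl/fl and 239 to 653 FPKM in Tmem173iΔmye tumors, a log2 fold change of 1.25 (SE 0.56). Sdc1 had 123 to 148 FPKM and 131 to 160 FPKM, a log2 fold change of 0.11 (SE 0.15). The highest sum was again in Tmem173iΔmye replicate 1. The part of plasma cells in the levels of Xbp1 and the chaperones was not tested.

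Of the translocon genes, Sec61b, a small subunit of the channel through which proteins enter the ER, varied most. It had 97.8, 39.5 and 44.2 FPKM in Tmem173fl/fl and 155, 78.0 and 62.9 FPKM in Tmem173iΔmye replicates 1, 2 and 3. Within each group, replicate 1 was the highest. The difference of 0.70 on the log2 scale (SE 0.44; adjusted p = 0.752 in edgeR) ranged from 0.21 without Tmem173iΔmye replicate 1 to 1.24 without Tmem173fl/fl replicate 1. Ssr1, which encodes a subunit of the translocon-associated complex and is the longest gene of the 34 at 10431 bases, had 17.6, 27.4 and 17.8 FPKM against 22.9, 18.8 and 19.0 FPKM. Sec61b, at 1271 bases, was lowest in Tmem173fl/fl replicate 2 and highest in replicate 1 of both groups, and Ssr1 was highest in Tmem173fl/fl replicate 2. In these 3 libraries short genes as a whole lay on the same side as Sec61b, and the part of gene length in its levels was not tested.

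A further 79 genes of the pathway, listed by their known roles, were all found, and 78 passed the filter. Their log2 fold changes were above 0 for 50 (64.1%, against 49.4% of all genes), with a median of 0.058. At an unadjusted p under 0.05, 3 were higher (3.85%, against 3.23% of all genes) and 2 lower (2.56%, against 2.9%) in Tmem173iΔmye tumors, and 0 had an adjusted p under 0.05, in edgeR. These shares were near those of all genes, and the 5 genes are given as values only. Atf3, a stress factor downstream of ATF4, had 14.9, 11.0 and 6.28 FPKM in Tmem173fl/fl and 19.9, 18.4 and 16.0 FPKM in Tmem173iΔmye replicates 1, 2 and 3, a log2 fold change of 0.75 (SE 0.29). Slc3a2, the heavy chain of amino acid transporters, had 27.1, 28.8 and 27.9 FPKM against 35.8, 35.8 and 33.6 FPKM, a log2 fold change of 0.33 (SE 0.11). The 6 values fell into narrow and separate groups. Dad1, a subunit of the oligosaccharyltransferase, had a log2 fold change of 0.36 (SE 0.15). Vldlr, a lipoprotein receptor induced through PERK, was lower, with 5.14, 3.70 and 3.84 FPKM against 3.06, 2.76 and 2.76 FPKM and a log2 fold change of -0.57 (SE 0.17). For Bcl2l11, the pro-apoptotic BIM, the log2 fold change was -0.51 (SE 0.22), but its groups overlapped. The adjusted p of each of these 5 was 0.742 from edgeR.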

How the data were processed

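Poly(A) RNA of whole tumors was sequenced. The authors deposited, in 1 table, raw read counts per gene and FPKM values for each of the 6 tumors. Per the labels, the submitters' processing notes name fastp, HISAT2 2.0.5, featureCounts 1.5.0-p3 and DESeq2 1.20.0 with GRCm38. Whether counting used strand is not given in the sources used here. The deposited FPKM values follow from the counts, gene length and median-of-ratios size factors, to within a relative difference of 4.88e-08. The table also holds the authors' own fold changes and p-values, which were not used.

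Genes whose FPKM averaged 0.5 or more over the tumors were tested on the deposited counts with edgeR 4.0.16 (R 4.3.3), using TMM normalization, the quasi-likelihood test, genotype alone in the model and Benjamini-Hochberg adjustment across the 16426 genes. The SE was obtained from the log2 fold change and the F statistic. Groups were called separate on TMM-scaled CPM. Motifs were searched by exact match. Alternatives were DESeq2 1.42.0, limma 3.58.1 on log2(FPKM + 1) or log2(FPKM + 0.1), other filters and scalings, the replicate number as a block, Y-linked reads as a covariate and leaving out each tumor. The fits were tested on simulated counts. The members, the further list and the alternatives were chosen with earlier results of these data known. Genes shown tumor by tumor were members with an unadjusted p under 0.05, separate groups, the highest level in their role, or a role as sensor or transcription factor, and of the further list up to 5 per direction with the lowest unadjusted p under 0.05. Per-tumor values of other members were added after their values were seen. The labels do not say that replicates come from separate mice, so p-values measure the spread between these samples, which may be technical in part. A planned description of protein tails was not made.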

Additional observations from a re-analysis of the deposited data

How the results depend on the processing

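The median log2 fold change of the 34 genes stayed above 0 in all 15 alternatives, between 0.11 (without Tmem173iΔmye replicate 1) and 0.24 (without Tmem173fl/fl replicate 2), and no alternative gave any of them an adjusted p under 0.05. The number with an unadjusted p under 0.05 was 4 (11.8%, against 6.14% of all genes), ranged from 0 to 11 when single tumors were left out (3.26% to 10.1% of all genes), and was 2 with Y-linked reads as a covariate (5.88%, against 3.37%). The number with separate groups was 7 (20.6%, against 12.5% of all genes), also under both other scalings, although the library size without the 20 highest genes gave 6 higher and 1 lower in place of 5 and 2. It ranged from 9 to 21 when single tumors were left out, where groups of 3 and 2 overlap less often by construction and the share of all genes was 18.7% to 31.2%. Among the further genes of the pathway, 5 had an unadjusted p under 0.05, against 6.14% of all genes. Their number ranged from 2 to 10 when single tumors were left out (3.26% to 10.1% of all genes). The 10 came from the fit without Tmem173fl/fl replicate 1, where 10.1% of all genes passed. With Y-linked reads as a covariate the number was 3 (3.37% of all genes). With limma it was 3 on either log2 scale (5.69% and 5.6% of all genes). It was 11 without the filter (5.63% of all genes) and 11 with the replicate number as a block (9.16% of all genes). The median log2 fold change of these further genes stayed above 0, from 0.0017 to 0.13 without single tumors. Deviations from the group means correlated between same-numbered tumors at 0.30, 0.0040 and 0.15 for numbers 1, 2 and 3. Between differently numbered tumors the correlations ran from -0.36 to 0.21. These values do not settle whether the numbers pair the samples, and the main fit used no block. With the replicate block, 5 of the 34 had an unadjusted p under 0.05 (Ern2, Atf4, Manf, Creld2 and Sec61b) and Xbp1 did not. The design of 3 tumors per group limits what could be called, and the cause of these changes was not tested.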
